A study of Rattus norvegicus with 8 samples.

Results

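The 9 genes described here encode enzymes of the malate-aspartate shuttle and the citric acid cycle, and were taken as a named set of 9 among the 35581 gene names on an Agilent rat array. They were chosen by name, but with earlier results of these data known. Got2 is among the genes the study itself drew from these arrays, and its direction is no independent evidence. They were represented by 13 of its 41012 probes. Got1, Got2, Mdh1, Cs, Idh1, Idh3a and Fh1 were found by the array's own symbol, with 10 probes, whereas Mdh2 and Idh2 were matched by accession to probes that the array names Mor1 (1 probe) and LOC361596 (2 probes).

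RNA came from whole testes explanted from Sprague-Dawley rat fetuses in mid-gestation and kept in organ culture for 72 h. A single testis had been exposed to 1 µM and 3 testes, from different litters, to 10 µM mono-(2-ethylhexyl) phthalate (MEHP), the hydrolysis product of a plasticizer, in DMSO. Each was compared with a single pool of RNA from 3 DMSO-treated testes, on 2 two-colour arrays with exchanged dyes, which gave 8 arrays. Every ratio below is the log2 of MEHP over this pool. The pool has no spread of its own here, and in whole explants fewer cells of a type and less RNA per cell cannot be told apart.

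The citric acid cycle oxidizes acetyl groups in mitochondria and hands the electrons to NADH and other carriers. The malate-aspartate shuttle moves the reducing power of cytosolic NADH across the inner mitochondrial membrane by interconverting oxaloacetate, malate and aspartate on both sides. In steroid-producing Leydig cells, a small part of the fetal testis, the mitochondrial steps of steroid synthesis draw on NADPH, which NADP-dependent isocitrate dehydrogenase and malic enzymes can supply.

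The shuttle has a cytosolic and a mitochondrial form of each of its enzymes: the aspartate aminotransferases Got1 (cytosolic) and Got2 (mitochondrial), and the malate dehydrogenases Mdh1 (cytosolic) and Mdh2 (mitochondrial). The 250 bases before the annotated start of these genes are given below because these 4 enzymes are the core of the shuttle. The sequences are those of RefSeq on build GRCr8, 5′ to 3′ on the strand of the gene. Capitals mark matches, on either strand, to GGGCGG (the GC box), CCAAT (the CCAAT box), AAGGTCA (a half-site of NR5A1, a regulator of steroid-producing cells) and TCGCGAGA, which was chosen after it had been seen in the Mdh2 sequence.

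Got1 (chr1:252329872-252330121, minus strand): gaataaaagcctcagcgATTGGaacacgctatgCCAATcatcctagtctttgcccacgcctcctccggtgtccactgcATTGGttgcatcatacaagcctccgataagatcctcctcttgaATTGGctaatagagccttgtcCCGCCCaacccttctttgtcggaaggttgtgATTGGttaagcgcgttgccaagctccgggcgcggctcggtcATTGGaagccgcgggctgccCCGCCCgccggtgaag
Got2 (chr19:9180178-9180427, plus strand): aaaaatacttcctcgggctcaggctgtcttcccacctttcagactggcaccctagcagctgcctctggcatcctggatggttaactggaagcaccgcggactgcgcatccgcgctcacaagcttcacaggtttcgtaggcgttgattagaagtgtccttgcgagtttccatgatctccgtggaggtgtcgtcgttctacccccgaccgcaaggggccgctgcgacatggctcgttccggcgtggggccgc
Mdh1 (chr14:99847228-99847477, minus strand): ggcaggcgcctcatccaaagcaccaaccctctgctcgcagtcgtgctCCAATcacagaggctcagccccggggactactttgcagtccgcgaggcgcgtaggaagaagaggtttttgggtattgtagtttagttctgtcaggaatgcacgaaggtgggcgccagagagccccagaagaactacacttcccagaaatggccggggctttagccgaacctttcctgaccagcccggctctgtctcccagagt
Mdh2 (chr12:26543842-26544091, minus strand): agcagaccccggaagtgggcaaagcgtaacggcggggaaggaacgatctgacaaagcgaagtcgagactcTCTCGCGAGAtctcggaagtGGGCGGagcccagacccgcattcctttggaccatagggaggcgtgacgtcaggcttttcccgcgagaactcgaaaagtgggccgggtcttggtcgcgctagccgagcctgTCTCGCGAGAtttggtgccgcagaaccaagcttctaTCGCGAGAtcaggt

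No motif was found in all 4 upstream sequences. Got1 held CCAAT at 6 places and GGGCGG at 2. Mdh2 held TCGCGAGA or its reverse complement at 5 positions, which overlap to form 3 sites, and GGGCGG at 1. Mdh1 held CCAAT once and Got2 held no match. Of the 8 members with an entry, 6 held GGGCGG, 5 held CCAAT, none held AAGGTCA and Mdh2 alone held TCGCGAGA. Among 33469 promoter windows of this length the shares were 30.5% for GGGCGG, 34% for CCAAT, 3.99% for AAGGTCA and 0.747% for TCGCGAGA. These matches are letters in a window and not measured binding sites.

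The quality of the arrays bears on every value that follows. By the labels MEHP carried Cy3 on each of the 8 arrays, while the methods state that 1 array of each pair had the opposite labelling. MEHP was therefore taken as green on the first hybridization and as red on the repeat, and the direction is likely rather than certain. Over 3666 probes that rose well above background in 1 channel or both of every array, red over green in the first hybridization had an r of −0.82 to −0.50 with the repeat, computed over probes and so not over independent samples. Over all 13172 probes read in the 1 µM testis, however, r was 0.16, so there the 2 arrays ran against each other once turned. Testis 2 at 10 µM stood apart: its MEHP channel was well above background at 0.249% and 1.54% of spots, against 7.80% to 15.4% on the other first hybridizations and 25.3% to 29.8% on the other repeats. Its ratios correlated with those of testes 1 and 3 with r of 0.21 and 0.26 across tested probes, while testes 1 and 3 gave 0.70. Results at 10 µM are therefore given with and without it.

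At 10 µM, the mean ratios of all 13 probes were below 0, between −1.70 for Mdh1 and −0.56 for Got1, with a median of −1.08. Over all 9913 tested probes, 72.8% of the means were below 0. All 6 hybridizations were below 0 for 5 of the 12 tested member probes, and for 19.3% of all tested probes. The order from Mdh1 to Got1 holds for the likely dye direction. With MEHP taken as Cy3 on all arrays, as the labels have it, 9 of the 12 testable probes were below 0, from Got1 at −0.76 to Fh1 A_42_P642743 at 0.70. Their median was then −0.26, which was not below the −0.35 over all tested probes. The sizes also depend on the normalization: loess within each array, after normexp background correction or without any correction, left all 12 means below 0 but brought Mdh1 to −0.38 and −0.34 and Cs A_43_P15355 to −0.011 and −0.022. The medians over the 12 were then −0.19 and −0.17, against −0.04 and −0.03 over all tested probes. Fold changes below are those of the deposited ratios. With all 3 testes, none of the 12 probes that could be tested passed an adjusted p of 0.05 in limma, where 1.87% of the 9913 tested probes passed as lower. At an unadjusted p of 0.05, 5 of the 12 were lower (Got2, Mdh1, Idh1, Idh3a and 1 probe of Fh1) and 0 were higher, as were 1573 lower and 175 higher over all tested probes. Without testis 2, 6 of the 12 probes were lower at an adjusted p of 0.05: Got2, Mdh1, Mdh2, Idh1, Idh3a and the same probe of Fh1. Of these, Mdh2 and the Fh1 probe were detected in the vehicle channel alone. The filter counted all 6 arrays in this fit too, and these probes met it only with 1 array of testis 2. The other 4 were above background in MEHP on only 1 or 2 arrays. All 6 therefore reached the limit of 3 arrays only with the vehicle channel, which favours lower ratios. Among the 10 probes detected in MEHP on some array 4 passed. Cs A_43_P15355, Idh2 A_44_P165989 and Fh1 A_42_P642743 reached the limit in MEHP as well, and none of them passed. In that fit of 2 testes, 9.85% of all tested probes passed as lower and 739 probes passed as higher. Leaving out testis 1 or testis 3 instead gave 0 member probes and 0 of all tested probes. The median over the 12 probes was −1.07 without testis 2, against −0.04 over all tested probes.

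**Figure D1:**
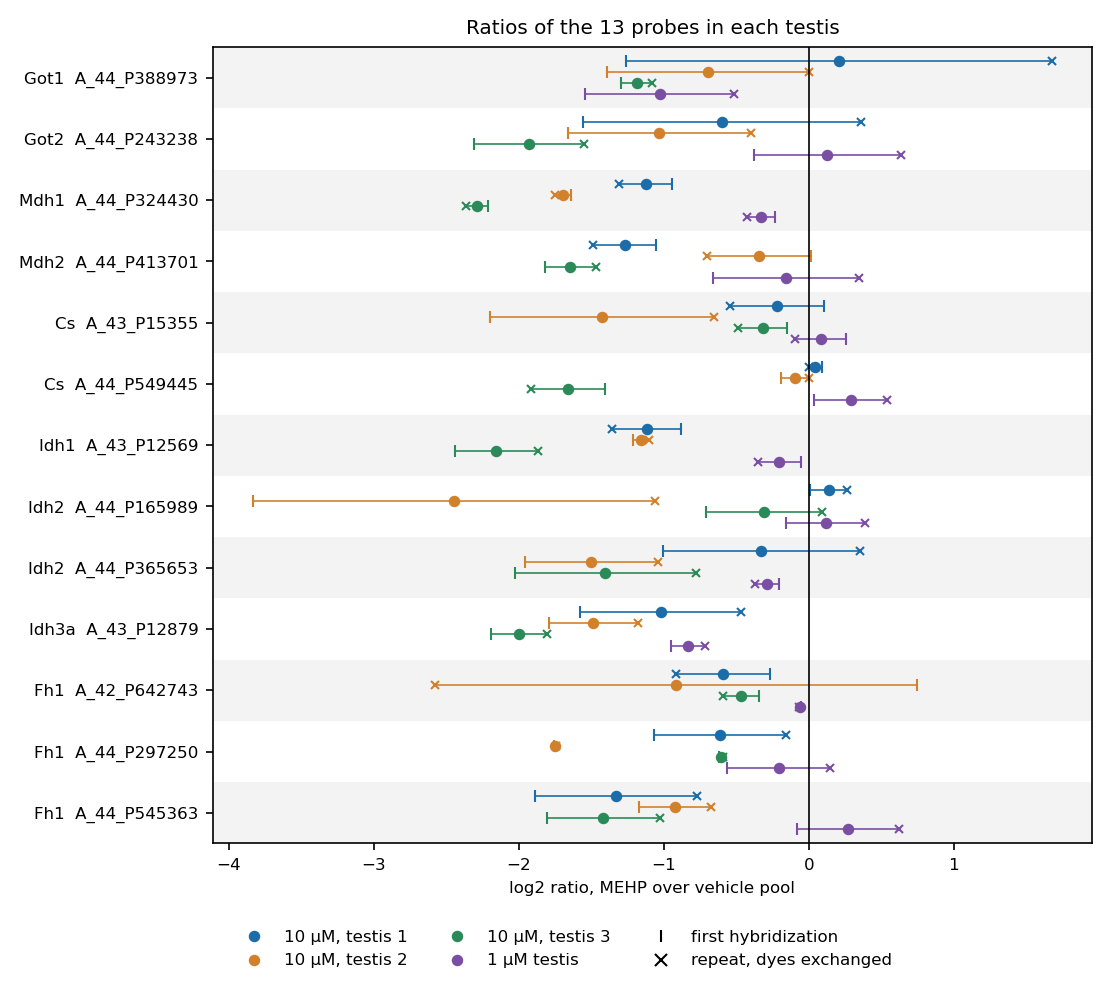
Log2 ratio of MEHP over the vehicle pool (x axis) for each of the 13 probes (rows). Filled circles are testis means, vertical ticks the first hybridizations and crosses the repeats with exchanged dyes, and lines join the 2 hybridizations of a testis. All 6 hybridizations at 10 µM lie below 0 for Mdh1, Idh1 and Idh3a, whereas Got1 spans −1.39 to 1.68.

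The shuttle enzymes are described first. Mdh1, the cytosolic malate dehydrogenase, had ratios of −0.94 and −1.31 in the first and repeat hybridization of testis 1, −1.64 and −1.75 in testis 2, and −2.21 and −2.37 in testis 3. All 6 lay below 0 and the 2 hybridizations of a testis differed by less than the testes did. They averaged −1.70 ± 0.58 (SD, n = 3 testes), or 3.26-fold lower, with an adjusted p of 0.070 in limma, and −1.71 when testis 2 was left out (adjusted p 0.016). Mdh1 was above background in the vehicle channel of all 6 arrays, with processed signals of 468 to 2107 over the 8 arrays, but in the MEHP channel of 2 of the 6.

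Mdh2, its mitochondrial counterpart, which makes the oxaloacetate that enters the cycle, had ratios of −1.05 and −1.49 in testis 1, 0.02 and −0.70 in testis 2, and −1.82 and −1.47 in testis 3. Testes 1 and 3 were low in both hybridizations, and testis 2 only in its repeat. Averaged over testes the ratio was −1.09 ± 0.67 (SD, n = 3; adjusted p 0.29). Leaving out testis 2 gave −1.46 (adjusted p 0.018). The MEHP channel was not well above background on any of the 6 arrays, and the vehicle channel was on 3. The level in MEHP can therefore only be bounded. Set against the lowest signal well above background on each array, Mdh2 was 1.21-fold lower. This value is no firm minimum, since it averages the vehicle signal over all 6 arrays, also where that was not well above background. Both loess settings gave Mdh2 a mean ratio of −0.21. The measured means of Mdh2 were 7.79 in MEHP and 8.87 in vehicle on the log2 signal scale.

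Got2, the mitochondrial aspartate aminotransferase, gave −1.56 and 0.36 in testis 1, −1.66 and −0.40 in testis 2, and −2.31 and −1.55 in testis 3. One hybridization of testis 1 was above 0 and the other 5 were below. Over the testes this came to −1.19 ± 0.68 (SD, n = 3), or 2.28-fold lower (adjusted p 0.24). Without testis 2 the mean was −1.27 and the adjusted p 0.045.

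Got1, the cytosolic aspartate aminotransferase, gave −1.26 and 1.68 in testis 1, −1.39 and 0 in testis 2, and −1.30 and −1.08 in testis 3. Testis 1 pointed in opposite directions on its 2 arrays, and the 0 in testis 2 stands for a spot with neither channel well above background. These averaged −0.56 ± 0.71 (SD, n = 3; adjusted p 0.64), and −0.49 when testis 2 was left out (adjusted p 0.41). Taking the listed 0 as missing gave −0.79 with an adjusted p of 0.51. The first hybridizations of Got1 were all low, between −1.39 and −1.26, and the repeats ran from −1.08 to 1.68.

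**Figure D2:**
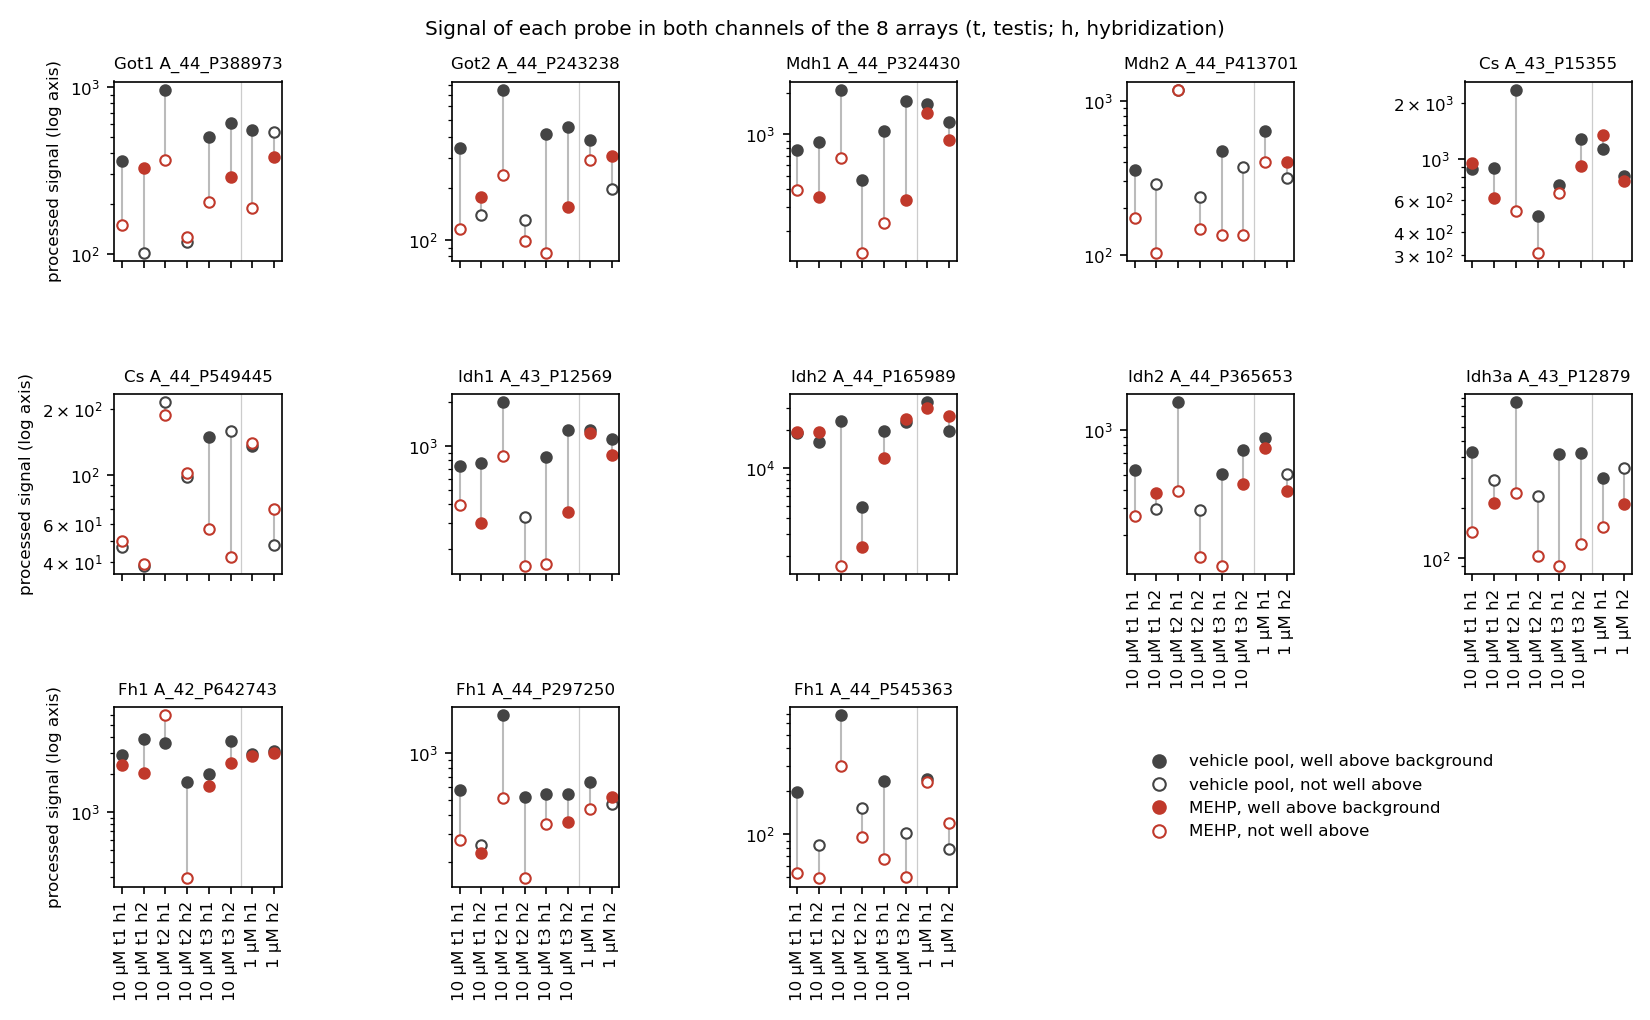
Processed signal (log axis) of each of the 13 probes on the 8 arrays (x axis; t, testis, h, hybridization), with the vehicle channel in grey and the MEHP channel in red. Filled circles were well above background and open circles were not. The MEHP circles of testis 2 are open for all probes but Idh2 A_44_P165989, whose signals are the highest of the 13 probes, at up to 33357 in vehicle.

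The isocitrate dehydrogenases and the entry enzyme of the cycle came next. Idh3a, the catalytic subunit of the NAD-dependent mitochondrial isocitrate dehydrogenase, gave −1.58 and −0.47 in testis 1, −1.79 and −1.18 in testis 2, and −2.19 and −1.80 in testis 3. All 6 hybridizations were below 0. They averaged −1.50 ± 0.49 (SD, n = 3), or 2.83-fold lower (adjusted p 0.12), and −1.51 when testis 2 was left out (adjusted p 0.020).

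Idh1, the cytosolic and peroxisomal NADP-dependent enzyme, gave −0.88 and −1.36 in testis 1, −1.21 and −1.10 in testis 2, and −2.44 and −1.87 in testis 3. Here too all 6 were below 0, and testis 3 was the lowest. The average was −1.48 ± 0.59 (SD, n = 3), or 2.78-fold lower (adjusted p 0.12), and −1.64 when testis 2 was left out (adjusted p 0.017).

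Idh2, the mitochondrial NADP-dependent enzyme, had 2 probes that disagreed. The brighter, A_44_P165989, gave 0.01 and 0.26 in testis 1, −3.83 and −1.06 in testis 2, and −0.71 and 0.09 in testis 3. Only testis 2 was low on both arrays, and the mean moved from −0.87 ± 1.38 (SD, n = 3; adjusted p 0.42) to −0.09 without it (adjusted p 0.88). The dimmer, A_44_P365653, gave −1.01 and 0.35 in testis 1, −1.96 and −1.04 in testis 2, and −2.03 and −0.78 in testis 3. On average this probe stood at −1.08 ± 0.65 (SD, n = 3; adjusted p 0.30), and at −0.87 without testis 2 (adjusted p 0.12). Neither probe passed with or without testis 2.

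Citrate synthase, Cs, condenses acetyl-CoA with oxaloacetate and opens the cycle. Its brighter probe, A_43_P15355, gave 0.10 and −0.54 in testis 1, −2.20 and −0.65 in testis 2, and −0.15 and −0.49 in testis 3. Testis 2 again lay well below the other testes. The mean was −0.65 ± 0.67 (SD, n = 3; adjusted p 0.57), and −0.27 without testis 2 (adjusted p 0.60). The other probe, A_44_P549445, was above background on 1 vehicle array at 10 µM and on no MEHP array, so it was not tested. Its ratios were 0.09 and 0 in testis 1, −0.19 and 0 in testis 2, and −1.40 and −1.92 in testis 3.

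Fumarate hydratase, Fh1, which turns fumarate into malate, had 3 probes. The brightest, A_42_P642743, gave −0.27 and −0.91 in testis 1, 0.75 and −2.58 in testis 2, and −0.34 and −0.59 in testis 3. The hybridizations of testis 2 pointed in opposite directions, while testes 1 and 3 were modestly low, and the mean was −0.66 ± 0.23 (SD, n = 3; adjusted p 0.56). A_44_P297250 gave −1.07 and −0.16 in testis 1, −1.76 and −1.74 in testis 2, and −0.62 and −0.59 in testis 3. All of its hybridizations were below 0, and they averaged −0.99 ± 0.66 (SD, n = 3; adjusted p 0.35). A_44_P545363 gave −1.89 and −0.77 in testis 1, −1.17 and −0.67 in testis 2, and −1.81 and −1.03 in testis 3. Again all were below 0, averaging −1.22 ± 0.26 (SD, n = 3; adjusted p 0.22), and −1.37 without testis 2 (adjusted p 0.021). The MEHP channel of this probe was above background on no array at 10 µM and the vehicle channel on 3, and its signals were too close to background to set a bound on the fold. The other Fh1 probes had means of −0.53 (A_42_P642743, adjusted p 0.29) and −0.61 (A_44_P297250, adjusted p 0.22) without testis 2.

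Probes of different brightness were also compared, without a test. The tested probes were split into 3 classes of equal size by their mean log2 signal over both channels of the 6 arrays. The MEHP signal is part of that mean, so a lower MEHP signal also moves a probe towards a dimmer class. The 3 member probes in the brightest class were Cs A_43_P15355, Idh2 A_44_P165989 and Fh1 A_42_P642743, and 0 of them passed as lower without testis 2. In the middle class 3 of 6 passed (Mdh1, Mdh2 and Idh1), and in the dimmest class 3 of 3 passed (Got2, Idh3a and Fh1 A_44_P545363). Over all tested probes the share that passed as lower was 10.7% in the brightest, 12.6% in the middle and 6.26% in the dimmest class. Without the 2 probes that were detected in the vehicle channel alone (Mdh2 and Fh1 A_44_P545363), the median of the other 10 was −1.03 with all testes and −0.74 without testis 2.

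Centring each array on its median moved the median of all tested probes from −0.42 to 0.04. On that scale the 12 member probes kept means below 0, with a median of −0.63, from −1.25 for Mdh1 (adjusted p 0.082) to −0.11 for Got1 (adjusted p 0.90), and none passed. With centring and without testis 2, the mean of Idh2 A_44_P165989 was at 0.00021 and those of the other 11 were below 0. The 6 probes with an adjusted p below 0.05 in that fit were again Got2, Mdh1, Mdh2, Idh1, Idh3a and Fh1 A_44_P545363, with means from −1.18 to −1.62. In the same fit 13.4% of all tested probes passed as lower (1326) and 1394 passed as higher. Over all tested probes, the calls with all 3 testes were 185 lower and 37 higher before centring and 51 lower and 55 higher after it.

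The means of testes 1 and 3 were both below 0 for 10 of the 12 tested probes, the exceptions being Got1 and Idh2 A_44_P165989, which were above 0 in testis 1. The same held for 37.9% of all tested probes. In testis 1 the median over the 12 probes was −0.61, against 0.09 over all tested probes. In testis 3 it was −1.41 against −0.20, and in testis 2 −1.29 against −1.13.

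**Figure D3:**
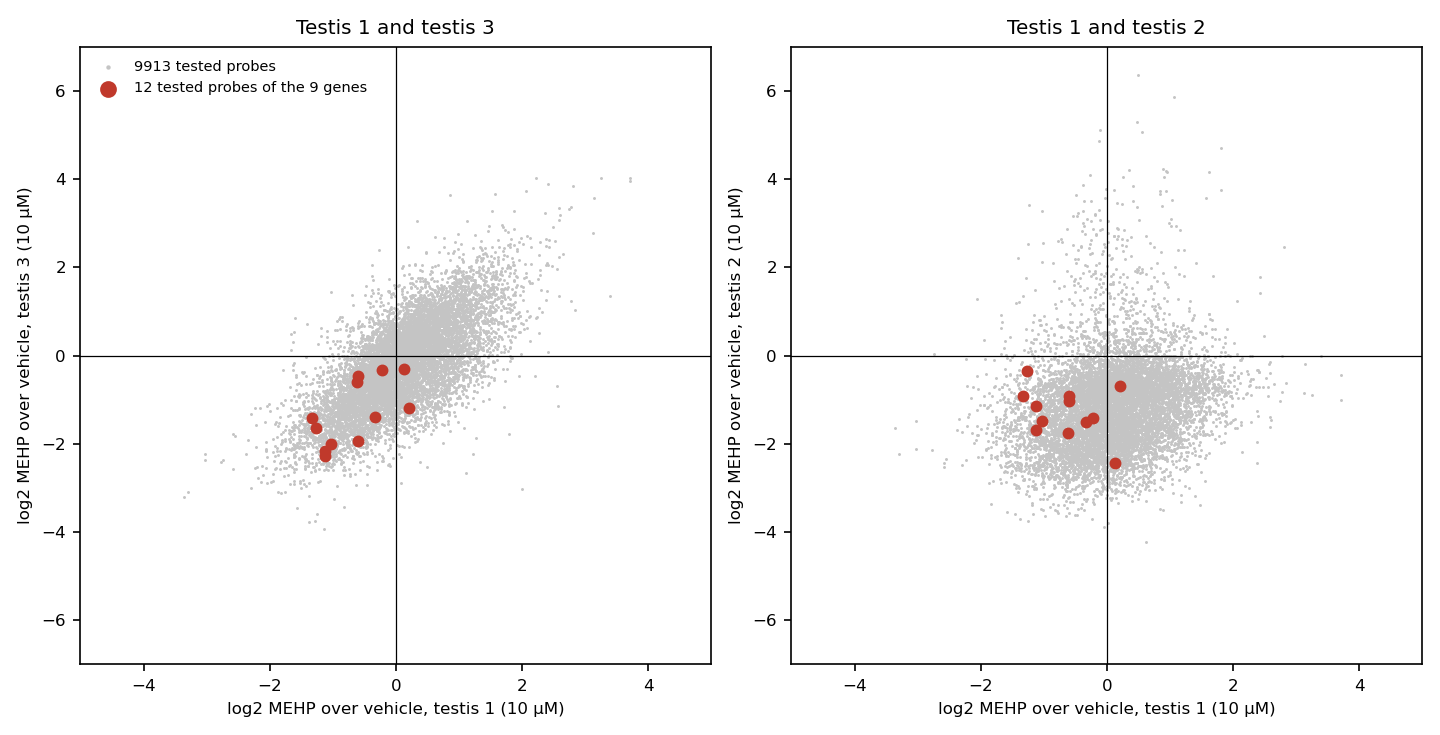
Log2 ratio of MEHP over the vehicle pool at 10 µM in testis 1 (x axis) against testis 3 (left) and testis 2 (right). Grey points are the 9913 tested probes and red points the 12 tested probes of the 9 genes, of which 10 lie below and to the left of both zero lines in the left panel. The grey points of testis 2 lie mostly below 0, with a median of −1.13.

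At 1 µM there was 1 testis, so no test was made, and a probe was counted when both arrays showed at least 1.5-fold the same way. Idh3a was the only member probe of 13 to do so, with ratios of −0.95 and −0.72. Over 13172 probes the same limit was passed as lower by 2.96% and as higher by 4.05%. The MEHP channel of Idh3a was above background on 1 of the 2 arrays, as was the vehicle channel, and not on the same array. Got1 was at −1.54 and −0.52, just short of the limit on its repeat.

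The other members were closer to 0 at 1 µM. Mdh1 gave −0.24 and −0.43, Idh1 −0.06 and −0.35, Idh2 A_44_P365653 −0.20 and −0.37, and Fh1 A_42_P642743 −0.05 and −0.07. These 4, with Idh3a and Got1, were the 6 probes below 0 on both arrays. Cs A_44_P549445, at 0.04 and 0.54, was the 1 probe above 0 on both, but only its vehicle channel was above background, on 1 array. The other 6 probes pointed in opposite directions on the 2 arrays. Got2 was at −0.38 and 0.64, Mdh2 at −0.66 and 0.35, Cs A_43_P15355 at 0.25 and −0.09, and Idh2 A_44_P165989 at −0.16 and 0.39. Fh1 was at −0.56 and 0.15 with A_44_P297250 and at −0.08 and 0.62 with A_44_P545363. The median over the 13 probes was −0.16, against 0.02 over the 13172 probes.

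The difference between doses was fitted over all 4 testes, with the lone 1 µM testis assumed to vary like the others. None of the 12 member probes passed, as none of 9911 probes did (0%), and none had an unadjusted p below 0.05 in limma. The estimates of 10 µM minus 1 µM were below 0 for 11 probes and had a median of −0.86, against −0.52 over all tested probes. Mdh1 had −1.37, Got2 −1.32 and Idh1 −1.27, each with an adjusted p of 1.00, and Got1 alone lay above 0, at 0.47. For the pathway list described below, 27 of 29 tested probes had estimates below 0, with a median of −0.67. The share below 0 was not counted over all tested probes. Testis 3 at 10 µM and the 1 µM testis shared a slide. On that slide the difference was −2.06 for Got2, −1.96 for Mdh1, −1.95 for Idh1, −1.16 for Idh3a and −0.16 for Got1, with no replicate. At 10 µM, 2 testes lay on the other slide.

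Other genes of the cycle, of its entry and exit reactions and of the shuttle were taken from a list of 48 symbols, of which 32 were on the array with 42 probes. The aspartate-glutamate carriers were not analysed here. Of 29 tested probes, 0 passed at 10 µM with all testes in limma and 7 were lower at an unadjusted p of 0.05, as were 1573 of all 9913 tested probes. Without testis 2, 7 passed, all as lower, among them both probes of Suclg2 (GDP-forming succinyl-CoA ligase), Pdhb (a subunit of pyruvate dehydrogenase), 1 of 2 probes of Me1 (cytosolic malic enzyme), 1 of 3 probes of Glud1 (glutamate dehydrogenase) and the Mdh2 probe, which this list holds under the name Mor1. In that fit 9.85% of all tested probes passed as lower. The Mdh2 probe counts both as a member and among the 29. The median mean ratio of the 29 probes was −0.68 with all testes and 0.00 without testis 2, the latter against −0.04 over all tested probes. In testes 1 and 3 together, 12 of the 29 were below 0 in both and 14 above 0 in both.

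Among the 5 lowest means at 10 µM were those of Suclg2, with −1.71 ± 0.97 (A_44_P181503, adjusted p 0.071) and −1.62 ± 0.65 (A_43_P20118, adjusted p 0.085), Pdhb (−1.30 ± 0.56, adjusted p 0.18) and Me1 A_43_P11481 (−1.28 ± 0.59, adjusted p 0.19), with SDs over 3 testes. Suclg2 A_44_P181503 ranged from −0.64 in testis 1 to −2.52 in testis 2.

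Among the 5 highest means were those of Slc25a22, a mitochondrial glutamate carrier (0.30 ± 0.92), Acly, the citrate lyase that makes cytosolic acetyl-CoA (0.28 ± 1.17), and 2 of 3 probes of Glul, glutamine synthetase (0.21 ± 0.73 and 0.06 ± 0.45). For each of these testes 1 and 3 were above 0 and testis 2 was below, as in Acly with 1.07, −1.06 and 0.83. Their adjusted p lay between 0.84 and 0.97. At 1 µM, 3 of 33 pathway probes passed 1.5-fold on both arrays: Pdhb was lower (−0.83 and −1.10), and Acly (0.65 and 1.01) and Gpd2, the mitochondrial glycerol-phosphate dehydrogenase (0.66 and 1.21), were higher. These were 3.03% lower and 6.06% higher, against 2.96% and 4.05% over all 13172 probes.

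**Figure D4:**
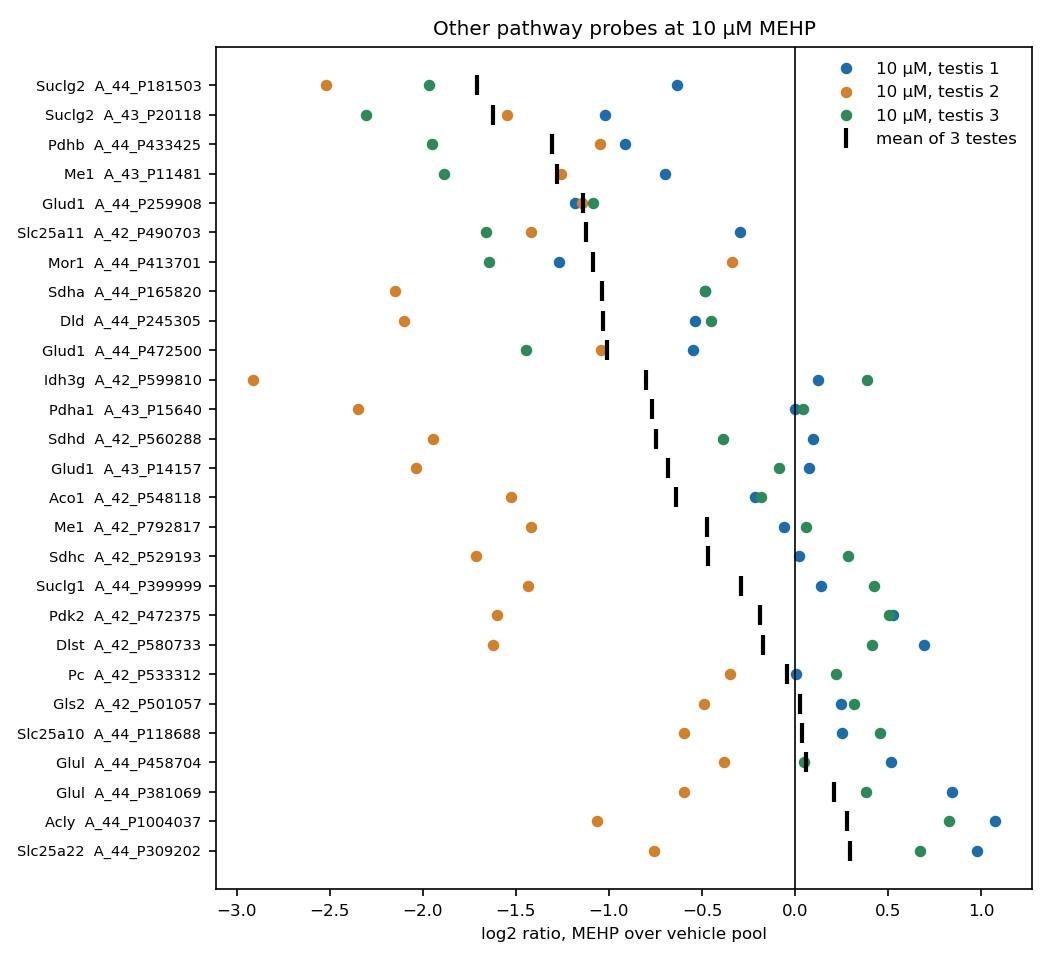
Log2 ratio of MEHP over the vehicle pool at 10 µM (x axis) for 27 of the 29 tested probes of the pathway list (rows, ordered by mean; Mor1 is Mdh2). Circles are the 3 testes and black bars their mean. Testis 2 is the lowest of the 3 for all probes from Idh3g downwards, and testes 1 and 3 lie to the right of it.

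Markers of the cells of the explant were read beside these genes. Of 7 Leydig cell markers, 5 were above background in the vehicle pool and Lhcgr and Nr5a1 were not. Of the 4 tested at 10 µM, 1 passed: Cyp17a1, at −1.96 ± 0.32 (SD, n = 3; adjusted p 0.039), and 3 passed as lower without testis 2. In testes 1 and 3, 3 of the 4 were below 0 in both. At 1 µM the Leydig list was split: of 5 probes, 2 were past 1.5-fold lower and 2 past it higher. Over all 13172 probes these shares were 2.96% and 4.05%. The Cyp17a1 call was lost with the testis as a random block (adjusted p 0.069), with centring (0.064), with the slide as a block (0.33), with a spread for the pool (1.00), under both loess settings (0.38 and 0.32), and without testis 1 (0.30) or testis 3 (0.85). With MEHP as Cy3 on all arrays the Cyp17a1 mean was −0.43 (adjusted p 0.17). The call was also lost with the first (0.12) or the repeat hybridizations alone (0.13). The same held without the filter on dim probes (0.54) and with listed 0 ratios as missing (0.061). It was kept with outlier spots kept, an intensity trend, error weighting, and without testis 2, centred or not. The summed Leydig signal ran from 1044 to 3016 in MEHP at 10 µM and from 1616 to 8252 in vehicle, and from 3039 to 4011 and 2730 to 4431 at 1 µM. Without testis 2 the Leydig sum in MEHP at 10 µM ran from 1110.7 to 1712.5, with no such range for vehicle. Of 7 Sertoli cell markers, 6 were above background, all but Fshr. None of their 7 tested probes passed, 3 were lower at an unadjusted p of 0.05 and 2 passed as lower without testis 2, with summed signals of 5494 to 11719 in MEHP and 3828 to 20005 in vehicle. The means of 5 of these 7 probes were below 0 (71.4%), against 72.8% over all tested probes. No germ cell marker could be tested at 10 µM. At 1 µM, Ddx4 (−0.91 and 0.88) and Tex101 (−1.63 and 0.87) pointed in opposite directions on the 2 arrays. The 1 probe of this list tested at 10 µM, which the array names Dnd1, carries an accession that RefSeq now gives to Hars1, an aminoacyl-tRNA synthetase of all cells. That probe and the 6 tested probes for peritubular (2), endothelial (1) and macrophage (3) markers did not pass, with 0 at an unadjusted p of 0.05, and 1 peritubular probe passed as lower without testis 2. No erythroid marker could be tested. The part of these cells in the ratios of the shuttle and cycle genes was not tested.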

How the data were processed

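Gene expression was measured by the authors on 8 Agilent Whole Rat Genome 60-mer arrays of 4 MEHP-treated fetal testes, each hybridized on 2 arrays against a pool of 3 vehicle-treated testes. Images were read with Agilent Feature Extraction 9.1 per the labels. The authors deposited, for every spot, the log10 ratio of red over green after background subtraction and dye normalization, its error on the same log10 scale, the intensity of both channels (processed, mean and local background) and flags for outliers and for signal above background. The authors' lists of signature genes at each dose, which hold a signed fold change and a p-value for each listed gene, were not used.

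The deposited log10 ratios were converted to log2 and turned to MEHP over vehicle. Spots that were controls or outliers were dropped. Ratios were averaged over the spots of each probe, then over both hybridizations of each testis. A ratio listed as exactly 0 (42.7% to 65.8% of spots, none of them well above background) was kept. A probe was tested if most of its usable spots were well above background in either channel on at least 3 of 6 arrays at 10 µM, or 1 of 2 at 1 µM, with a usable spot on every array. This filter counted all 6 arrays also where a testis was left out. The 3 testes at 10 µM were tested against 0, two-sided, across all 9913 tested probes using limma 3.58.1 (lmFit, eBayes) under R 4.3.3, and p-values were adjusted by the Benjamini-Hochberg method. The difference between doses was a limma fit of all 4 testes. The model against 0 was first run on simulated data, where it had little power to call known changes at the spread between these testes. A lack of calls is therefore no evidence of unchanged levels. The pool counts as 1 control sample, and the p-values leave out its own spread.

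The members, the pathway list and the marker lists were chosen with earlier results of these data known. The text names all member probes, the pathway genes that passed at either dose, and those with the 5 lowest and 5 highest means at 10 µM, whereas Glud1 was named after its values were seen. Some pathway genes that this rule covers are not reported here. Of 41012 probes, 10735 were matched by accession to a RefSeq gene table of GRCr8, used for names only. Files were read with data.table (version 1.17.8) and jsonlite (version 2.0.0), and figures drawn with Python 3.11.15 and matplotlib 3.10.9. Arrays carry no counts, and their number limits the precision. The alternatives concerned background correction, normalization, centring, filters, outlier spots, single hybridizations, dye direction, left-out testes, the spread of the pool, the eBayes trend, blocks for testis and slide, error weighting and the fold limit. Taking listed 0 ratios as missing was added after seeing the data.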

Additional observations from a re-analysis of the deposited data

How the results depend on the processing

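The count of 0 member probes at 10 µM became 1 with an intensity trend in eBayes (Fh1 A_44_P545363, adjusted p 0.040) and 12 with an error-weighted mean over arrays, which leaves out the spread between testes and called 5701 of 9913 probes. Leaving out 1 testis gave counts from 0 to 6, with 6 without testis 2 and 0 without testis 1 or testis 3, and centring without testis 2 also gave 6. For the pathway list the counts ran from 0 to 7 with a testis left out, and were 11 with centring and without testis 2 (9 lower, 2 higher) and 14 with error weighting (11 lower, 3 higher). The number of calls over all tested probes was 222 as reported, 106 with centring, 1715 without testis 2, and 0 with either loess setting, without the filter on dim probes, with the first hybridizations alone, with MEHP as Cy3 on all arrays, without testis 1 or testis 3, with a spread for the pool, and with the testis or the slide as a block.

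At 1 µM, the count of 1 (Idh3a) was 0 under normexp with loess, loess without background correction, a filter on both channels, MEHP taken as Cy3 on all arrays and a 2-fold limit. It was 2 with centring, 3 with the first hybridizations alone (all lower; 5281 of 13172 probes passed) and 3 with the repeats alone (2 of them higher; 6268 passed). The count of 0 for the dose difference became 4 with error weighting, which called 2342 of 9911 probes.

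The mean ratio changed sign for Got1 with the repeat hybridizations alone (0.20), for Mdh1 (0.11) and Mdh2 (0.13) with MEHP as Cy3 on all arrays, for Idh2 A_44_P165989 with centring and without testis 2 (0.00021), and for Fh1 A_42_P642743 with the first hybridizations alone (0.045) and with MEHP as Cy3 on all arrays (0.70). The cause was not tested. In the other settings each mean kept its sign, with 185 values on the same side of the threshold and 25 that passed it, but both loess settings brought the 12 means to between −0.38 and −0.011. No member probe was left by the filter on both channels at 10 µM. No paired analysis was possible because the 2 doses share fewer than 2 replicate numbers. At 1 µM, with 1 testis, the alternatives on testes, blocks, moderation and error weighting were not run. A spread for the pool was not run for the dose difference, where the pool cancels.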
